A study of Homo sapiens with 6 samples.

Results

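The integrin and laminin genes were described in Hey and SKOV3, established lines of human ovarian cancer, each as parental cells, as polyploid giant cancer cells (PGCCs) and as daughter cells. Members were chosen by symbol alone, as the genes for integrin alpha and beta subunits and for laminin alpha, beta and gamma chains, with hyphenated names and pseudogenes left out. Of 59008 gene symbols in the table, 37 such members are described. Of these, 30 reached 1 TPM (transcripts per 1000000, an abundance corrected for transcript length and scaled within each library) in at least 1 library, and 24 had a mean of at least 1 TPM over the 6 libraries. All counts of changed genes below are over these 24 members, 16 integrins and 8 laminins, beside 14988 genes that passed the same filter.

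RNA was sequenced as 1 library per condition. Parental cells were untreated. PGCCs had received 500 nM paclitaxel, which stabilizes microtubules and blocks mitosis, for 16 h, and were collected after 3 days of recovery according to the treatment labels and the methods, although the title of the SKOV3 PGCC library gives day 7. Daughter cells had the same treatment and 30 days of recovery, and the daughter library of each line is 1 clone. Hey was grown in MEM Eagle medium and SKOV3 in RPMI-1640, so cell line and medium cannot be told apart, and clone and state cannot be told apart in daughter cells. Without replicates a difference between 2 libraries carries no error. A gene was called changed when log2(TPM + 1) differed by at least 1, that is 2-fold, and no p-value was computed for such a pair. Fold values given for single genes are ratios of TPM without the added 1, so they can exceed the log2 difference beside them. The comparisons share libraries and are not independent of each other. In bulk RNA, fewer cells of a type and less RNA per cell cannot be told apart.

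Integrins are receptors of 1 alpha and 1 beta subunit that span the cell membrane and tie the extracellular matrix to the cytoskeleton. The alpha subunit largely sets the ligand: some alpha subunits bind laminins, others collagens, and others the RGD sequence of fibronectin and vitronectin. Laminins are cross-shaped trimers of 1 alpha, 1 beta and 1 gamma chain and form the sheet on which the basement membrane is built. Ovarian cancer cells use both families when they attach to and cross the lining of the abdominal cavity.

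The 6 libraries summed to 911825 to 920497 TPM. In the order parental cells, PGCCs and daughter cells, mitochondrial transcripts took 2.64%, 12.3% and 7.6% of it in Hey and 9.17%, 7.37% and 14.8% in SKOV3. In the same order, genes above 0 TPM numbered 19920, 25370 and 20154 in Hey and 22041, 23449 and 23893 in SKOV3. All 6 epithelial and all 4 Mullerian markers reached 1 TPM in some library, with sums of 1036 to 3161 TPM and 59.2 to 184.9 TPM. KRT8, KRT18, KRT7 and PAX8, which mark epithelial cells of this tumour type, were above 50 TPM in all 6 libraries. EPCAM was at most 1.43 TPM in Hey and at least 8.15 TPM in SKOV3, KRT19 at most 3.60 TPM in Hey and at least 80.2 TPM in SKOV3, and WT1 at most 4.10 TPM anywhere. MSLN was 0.386 and 1.85 TPM in the daughter cells of Hey and SKOV3 and at least 21.5 TPM elsewhere, and CDH1 and MUC16 were at most 0.0322 TPM in the 3 Hey libraries. None of 7 leukocyte markers and none of 3 platelet markers reached 1 TPM, with summed levels of 0.210 to 1.09 TPM and 0 to 0.380 TPM. PTPRC was at most 0.425 TPM and PF4 was listed at 0 throughout. Of 5 fibroblast markers 4 reached 1 TPM in some library, and their sum ran from 0.121 to 27.3 TPM, the highest in SKOV3 daughter cells. Of 4 endothelial markers only CDH5 reached 1 TPM, at 33.2 to 48.5 TPM in Hey and at most 2.56 TPM in SKOV3. Whether these marker levels or the number of genes above 0 had a part in the results was not tested.

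Many members differed between the lines, and 10 did so by at least 2-fold in every state. In parental cells 7 members were at least 2-fold higher and 8 at least 2-fold lower in Hey than in SKOV3, where 11.5% and 24.2% of all genes were. In all 3 states 5 members were higher in Hey, namely ITGA2, ITGA5, ITGA6, LAMA4 and LAMB3, against a background of 4.71%, and 5 were lower, namely ITGA4, ITGB4, ITGB6, ITGB8 and LAMA3, against 11.5%. With states as the repeats of a line, limma called 5 members higher in Hey, among 6.27% of genes, and 6 lower, among 14.4%. The count of 11 became 4 (ITGA2, ITGB4, ITGB6 and LAMA3) with no filter on low values. With 1 library left out, and 1 residual degree of freedom, it became 5 without the parental library of Hey or of SKOV3, 10 and 11 without the daughter library of Hey or of SKOV3, then with ITGAX and ITGB3 among the calls, and 0 without the PGCC library of either line. Without a PGCC library no gene in the table passed in limma, while 13 members kept an unadjusted p under 0.05, and the smallest adjusted p of a member was 0.0677 without Hey PGCCs and 0.0651 without SKOV3 PGCCs. ITGA5 and LAMC1 passed in none of the 6 fits with a library left out, and LAMB3 passed in 1. ITGA4, ITGB8 and LAMA4 passed only in the fits without a daughter library. The split in parental cells depended on scaling, since scaling by median ratios to a geometric mean library gave 9 higher and 6 lower and moved the median over all genes from -0.29 to -0.014. Quantile normalization gave 8 and 6, and so did the removal of the trend in GC content and length.

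**Figure D1:**
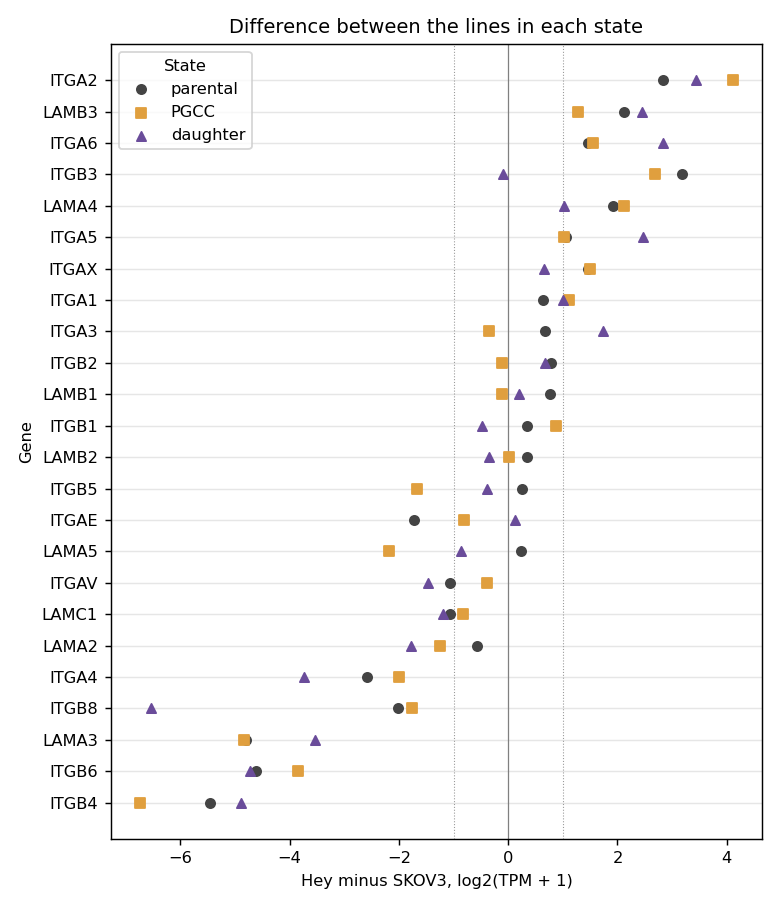
Hey minus SKOV3 in log2(TPM + 1) (horizontal axis) for the 24 members with a mean of at least 1 TPM (rows), with 1 point each for parental cells (circles), PGCCs (squares) and daughter cells (triangles), and dotted lines at 2-fold. ITGB4 lies at -5.46, -6.74 and -4.89 and ITGA2 at 2.83, 4.11 and 3.44, while ITGB3 is at -0.09 in daughter cells only.

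Between states, few members changed in the same direction in both lines. PGCCs against parental cells gave 1 member higher (LAMA4) and 1 lower (LAMB1) in Hey, where 7.67% and 5.22% of all genes were higher and lower. In SKOV3 the same comparison gave 4 higher (ITGA3, ITGB4, ITGB5 and LAMA5), a share of 16.7% against 9.94%, and 0 lower against 4.96%. Daughter against parental cells gave 0 members higher and 4 lower (ITGA1, ITGB3, LAMA4 and LAMB1) in Hey, against 6.31% and 3.73% of genes. In SKOV3 that comparison gave 4 higher (ITGA4, ITGB8, LAMA2 and LAMA5) and 5 lower (ITGA1, ITGA3, ITGA5, ITGA6 and LAMA3), against 15.1% and 6.34%, so 20.8% of the members were lower. Daughter cells against PGCCs gave 1 higher (ITGB5) and 4 lower (ITGA1, ITGAX, ITGB3 and LAMA4) in Hey, against 9.95% and 8.13%. In SKOV3 they gave 2 higher (ITGA4 and ITGB8) and 7 lower (ITGA1, ITGA3, ITGA5, ITGB4, LAMA3, LAMA4 and LAMB3), against 14.6% and 9.25%, so 29.2% of the members were lower.

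For members that went the same way in both lines, the count was 0 for PGCCs against parental cells, where 0.834% of genes were higher and 0.834% lower. With a pseudocount of 0.1 added to TPM in place of 1, LAMA4 passed 2-fold there in both lines, at 1.23 in Hey and 1.46 in SKOV3. For daughter against parental cells the count was 0 higher and 1 lower (ITGA1, 4.17% of members), with backgrounds of 1.19% and 0.387%. LAMA4 joined ITGA1 with the pseudocount of 0.1. For daughter cells against PGCCs the count was 0 higher and 2 lower (ITGA1 and LAMA4, 8.33% of members), with backgrounds of 1.21% and 1.07%. ITGAX, ITGB3 and ITGB4 joined these 2 with the pseudocount of 0.1. ITGA1 and LAMA4 averaged 3.62 and 4.06 TPM, so neither passes the alternative filter at a mean of 5 TPM. With the lines as the only repeats of a state, limma called 0 members in any of these comparisons at an adjusted p under 0.05, and 0.02%, 0.0133% and 0.0% of all genes (3, 2 and 0 genes) for PGCCs against parental, daughter against parental and daughter against PGCCs. At an unadjusted p under 0.05 it gave 0, 3 and 4 members, all of them lower in daughter cells, where 1.57%, 0.961% and 1.98% of all genes were lower at that p in the 3 comparisons.

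The balance of higher and lower calls moved with scaling in several of these comparisons. For PGCCs against parental cells in SKOV3, 4 higher and 0 lower became 0 and 0 with the GC and length trend removed. For PGCCs against parental cells in Hey, 1 higher and 1 lower became 2 and 0 with quantile normalization, without mitochondrial genes, and with the GC and length trend removed. For daughter against parental cells in SKOV3, 4 and 5 became 2 and 7 with median ratios, 1 and 7 with quantile normalization, and 3 and 9 without the trend, and the median ratios moved the median of all genes from 0.15 to -0.015. For daughter against parental cells in Hey, 0 and 4 became 1 and 4 without mitochondrial genes. For daughter cells against PGCCs in Hey, 1 and 4 became 0 and 4 in all 4 of these settings. The medians over the members, in the order of the comparisons above for Hey and SKOV3, were 0.06 and 0.22, then -0.17 and 0.02, then -0.13 and -0.35, beside 0.0 and 0.02, 0.05 and 0.15, and 0.03 and 0.12 over all genes.

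**Figure D2:**
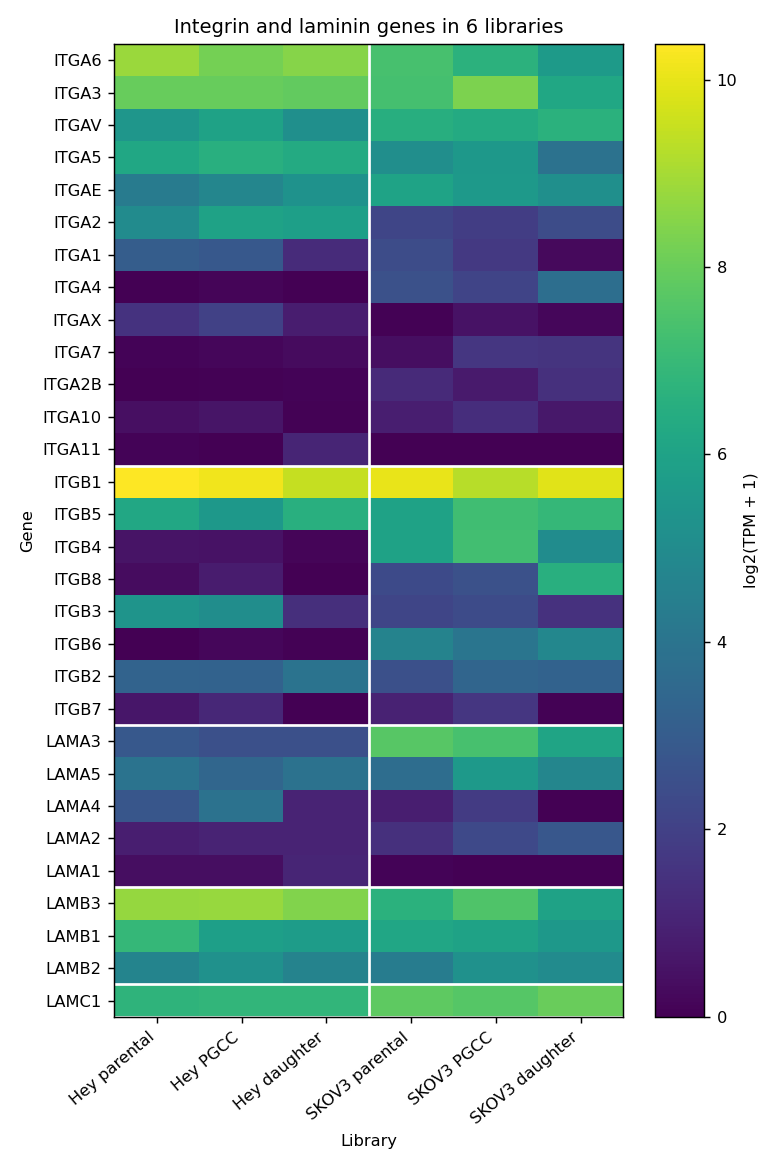
Heat map of log2(TPM + 1) for the members that reached 1 TPM in any library, with genes as rows grouped by subunit or chain type, the 6 libraries as columns, and lighter colours for higher values. ITGB4, ITGB6 and LAMA3 are lighter in SKOV3 than in Hey, ITGB1 is the highest in every column, and ITGB8 stands out in SKOV3 daughter cells at 91.5 TPM.

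Of the 8 laminins tested, limma called 4 between the lines, LAMA3 and LAMC1 lower and LAMB3 and LAMA4 higher in Hey. LAMA3 and LAMB3 encode the alpha and beta chains of an epithelial laminin that anchors cells through hemidesmosomes. LAMA3 stood at 6.32, 4.85 and 4.79 TPM in Hey, in the order parental cells, PGCCs and daughter cells that is kept from here on, and at 203, 165 and 66.1 TPM in SKOV3. The difference between the lines was -4.39 on the log2 scale (SE 0.371, adjusted p = 0.000529 by limma), lower in Hey in 3 of 3 states. LAMB3, the beta chain, had the opposite order, with 425, 440.0 and 343 TPM in Hey and 97.5, 180.1 and 62.2 TPM in SKOV3, a difference of 1.95 (SE 0.331, adjusted p = 0.00812 by limma). Hey thus held 67.1, 90.7 and 71.6 TPM of LAMB3 for each TPM of LAMA3, while SKOV3 held 0.480, 1.09 and 0.941.

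Across states both chains were called in SKOV3 only. In SKOV3 daughter cells LAMA3 was 3.07-fold lower than in parental cells, with a log2 difference of -1.61 that stayed past 2-fold under every scaling tried, and it differed from PGCCs by -1.31. LAMB3 differed by -0.64 from parental cells, short of the threshold, and was 2.89-fold lower than in PGCCs. In Hey both chains differed from parental cells by at most 0.34 in size in daughter cells and in PGCCs. The difference between the lines in these changes was not tested.

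Promoter windows are shown for LAMA3 and LAMB3, whose levels were called lower together in SKOV3 daughter cells against PGCCs, since both held the AP-1 letters. The windows are the 250 bases before an annotated start in RefSeq (GRCh38.p14), printed 5′ to 3′ on the gene's strand. Letters searched on both strands were TGAGTCA and its complement TGACTCA for AP-1, GGGCGG and CCGCCC for the GC box, and TATAAA and TTTATA for the TATA box, and matches are in capitals. LAMA3 is at chr18:23872770-23873019, plus strand, inside the gene at one of its 15 annotated starts, with AP-1 letters 125 and 69 bases before the start.
LAMA3: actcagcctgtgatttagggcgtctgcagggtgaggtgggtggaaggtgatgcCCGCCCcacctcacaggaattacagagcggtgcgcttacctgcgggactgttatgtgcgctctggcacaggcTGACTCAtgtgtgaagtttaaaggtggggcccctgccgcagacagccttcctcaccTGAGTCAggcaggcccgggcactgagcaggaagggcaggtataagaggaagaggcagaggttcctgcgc
LAMB3 is at chr1:209651375-209651624, minus strand, inside the gene, with AP-1 letters 67 bases before the start. It is 1 of 3 LAMB3 windows and was picked for this match, and the other two hold no AP-1 letters.
LAMB3: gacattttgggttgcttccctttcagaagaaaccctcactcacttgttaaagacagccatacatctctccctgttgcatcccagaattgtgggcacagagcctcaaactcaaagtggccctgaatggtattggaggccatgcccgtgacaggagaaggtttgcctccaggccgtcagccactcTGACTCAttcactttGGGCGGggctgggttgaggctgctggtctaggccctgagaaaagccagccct
The AP-1 letters were in 4.2% of 35116 promoter windows of all genes and in 2 (6.06%) of the 33 windows of 26 members with an entry. GC boxes were in 42.6% of all windows and in 17 (51.5%) of those of the members, and TATA letters in 10.7% and 2 (6.06%). A match is a run of letters and not a binding site.

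Of the other laminin alpha chains, LAMA4 and LAMA5 were called between states. LAMA4, found in laminins of vessels and mesenchyme, is at chr6:112107931-112254939 (GRCh38) and stood at 5.93, 14.1 and 1.02 TPM in Hey, and at 0.839 and 2.48 TPM in SKOV3 parental cells and PGCCs, with SKOV3 daughter cells listed at 0. It was the highest in PGCCs and the lowest in daughter cells of both lines. In Hey the PGCCs were 1.12 higher than parental cells and daughter cells 2.90 lower than PGCCs on the log2 scale, and in SKOV3 the values were 0.92 and -1.80. With the pseudocount of 0.1 the PGCC against parental difference of LAMA4 was 1.23 in Hey and 1.46 in SKOV3. By limma its daughter against PGCC difference was -2.35 (SE 0.529, unadjusted p = 0.00269, adjusted p = 0.908), lower in 2 of 2 lines. LAMA4 was higher in Hey in 3 of 3 states, with a difference of 1.68 (SE 0.432, adjusted p = 0.0335 by limma).

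LAMA5, the alpha chain of the widespread epithelial laminins, had 14.7, 9.84 and 14.0 TPM in Hey and 12.3, 48.0 and 26.4 TPM in SKOV3. The parental lines were close, and the 3 Hey libraries lay below the treated SKOV3 ones. In SKOV3 it was 3.91-fold higher in PGCCs and 2.16-fold higher in daughter cells than in parental cells, with log2 differences of 1.88 and 1.05. The PGCC difference was 0.60 and the daughter difference 0.41 with the GC and length trend removed, and the daughter difference also missed the threshold at 0.84 with median ratios and 0.85 with quantile normalization.

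LAMA2, the alpha chain of muscle and nerve laminins, stood at 0.834, 1.05 and 1.07 TPM in Hey and 1.71, 3.84 and 6.11 TPM in SKOV3. Daughter cells of SKOV3 were 1.39 higher than parental cells on the log2 scale, and 0.99 with quantile normalization. LAMA1, the alpha chain of embryonic basement membranes, was 0.307, 0.317 and 1.09 TPM in Hey. In SKOV3 it had 0.0823 TPM before treatment and stood at a listed 0 in PGCCs and daughter cells.

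Among the beta and gamma chains, LAMB1 was called in Hey. LAMB1, the common beta chain, had 118, 56.9 and 52.7 TPM in Hey and 69.3, 61.3 and 45.8 TPM in SKOV3. In Hey it was 2.07-fold lower in PGCCs and 2.24-fold lower in daughter cells than in parental cells, and the PGCC difference of -1.04 shrank to between -0.97 and -0.89 with quantile normalization, without mitochondrial genes or without the trend. LAMB2, the beta chain of neuromuscular and kidney laminins, had 24.8, 37.5 and 24.1 TPM in Hey and 19.4, 37.1 and 30.9 TPM in SKOV3, with no difference past the threshold between states. LAMC1, the common gamma chain, had 106, 112 and 112 TPM in Hey and 224, 200.1 and 258 TPM in SKOV3. It was flat across states, its parental difference of -1.07 between the lines shrank to between -0.88 and -0.75 with median ratios, quantile normalization or the trend removed, and over the states the difference was -1.03 (SE 0.284, adjusted p = 0.0419 by limma).

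**Figure D3:**
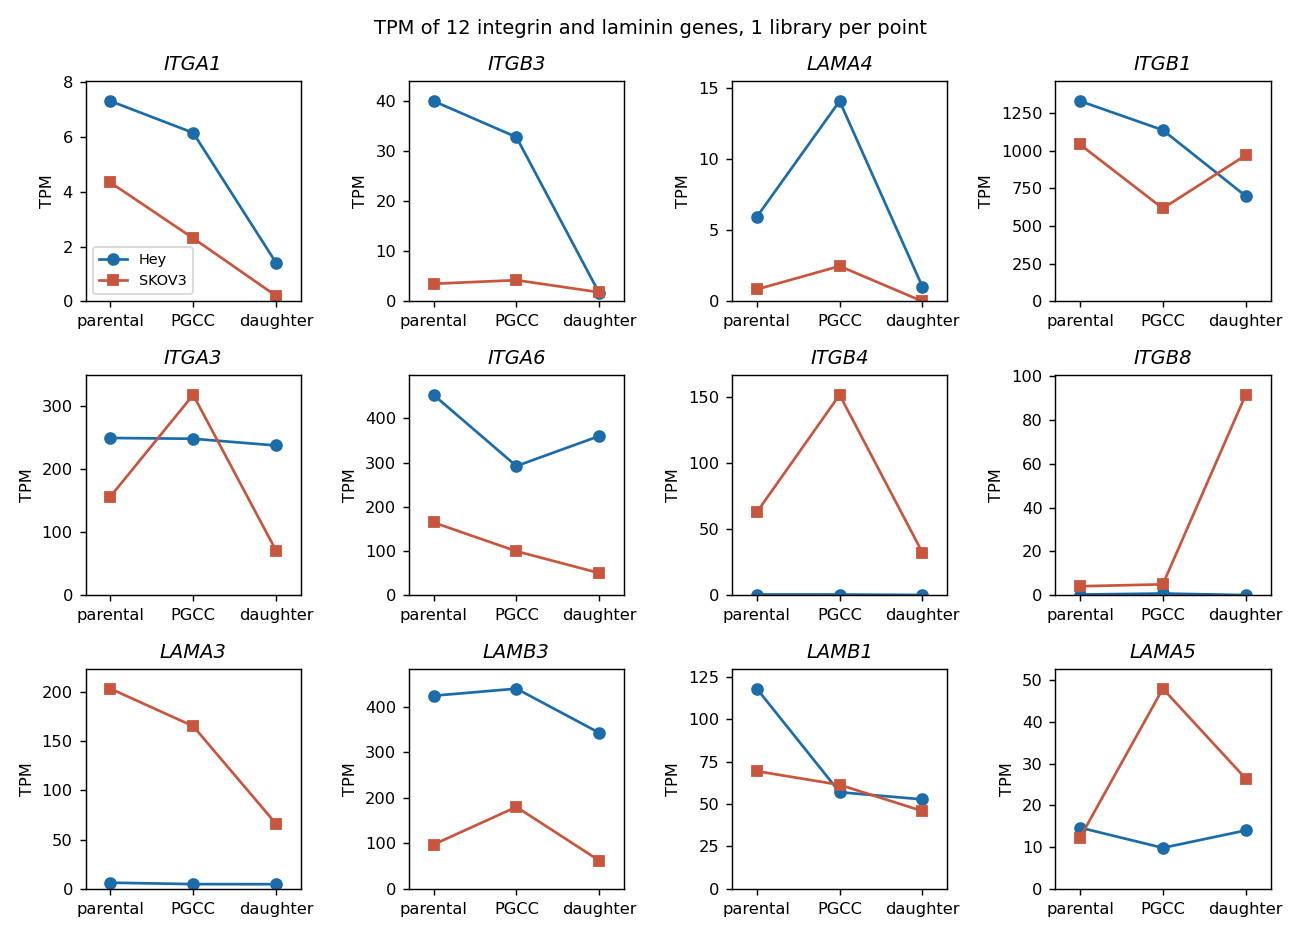
TPM of 12 members by state in Hey (circles) and SKOV3 (squares), 1 library per point, on linear axes that start at 0 and differ between genes. ITGA1, ITGB3, LAMA4, ITGA3, ITGB4, LAMA3, LAMB3 and LAMB1 were lowest in daughter cells of both lines. ITGB8 was at 91.5 TPM in SKOV3 daughter cells and below 5 TPM elsewhere.

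The alpha subunits that bind laminins held most of the alpha transcripts in every library but SKOV3 daughter cells. ITGA3, ITGA6 and ITGA7 are the laminin-binding subunits counted here. Their summed share of alpha TPM was 80.2%, 68.0% and 73.6% in Hey, and 61.3%, 69.5% and 42.3% in SKOV3. ITGA6, which pairs with ITGB1 or ITGB4, had 453, 292 and 360.1 TPM in Hey and 164, 99.4 and 49.96 TPM in SKOV3. It was higher in Hey in 3 of 3 states, by 1.94 (SE 0.361, adjusted p = 0.0112 by limma). In SKOV3 daughter cells it was 3.29-fold lower than in parental cells, and the log2 difference of -1.70 ranged from -1.91 to -1.61 over the alternatives.

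ITGA3, which binds the same laminins, had 249.9, 248.6 and 237.9 TPM in Hey and 156.6, 318.5 and 70.9 TPM in SKOV3. The Hey values were nearly level, while the SKOV3 values rose 2.03-fold in PGCCs and fell 4.49-fold from there to daughter cells. The SKOV3 PGCC difference of 1.02 missed the threshold at 0.95 with median ratios, at 0.99 without mitochondrial genes and at 0.14 with the GC and length trend removed. ITGA7, known as a laminin receptor of muscle, was 0.0742, 0.123 and 0.238 TPM in Hey and 0.317, 2.15 and 1.94 TPM in SKOV3.

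The beta partners of these subunits were led by ITGB1 in both lines, while ITGB4 differed between them. ITGB1, the partner of most alpha subunits, had 1331, 1138 and 700.1 TPM in Hey and 1042, 617 and 971 TPM in SKOV3. It took 91.5%, 92.8% and 86.6% of beta TPM in Hey and 86.6%, 65.1% and 77.5% in SKOV3. No ITGB1 difference between states passed the threshold; the daughter against parental difference in Hey was -0.93, and -1.05 with median ratios. ITGB4, the hemidesmosome subunit that pairs with ITGA6, is at chr17:75721328-75757818 (GRCh38) and had 0.444, 0.429 and 0.114 TPM in Hey and 62.7, 151 and 32.1 TPM in SKOV3. It had the largest line difference of the 24 members in log2(TPM + 1), -5.70 (SE 0.432, adjusted p = 0.000353 by limma). This rank depended on the added 1. With a pseudocount of 0.1 the difference between parental cells was -6.85 for ITGB4 and -7.64 for ITGB6. In SKOV3 ITGB4 was 2.42-fold higher in PGCCs than in parental cells and 4.71-fold lower in daughter cells than in PGCCs. Once the trend with GC content and length was taken out, the first difference went from 1.26 to 0.20, below the threshold, and the second from -2.20 to -1.69.

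The TPM ratio of ITGA6 to ITGB4 was 1021, 680 and 3146 in Hey, and 2.62, 0.656 and 1.56 in SKOV3, where ITGB4 was above ITGA6 in PGCCs. The Hey ratios rest on ITGB4 values below 0.5 TPM.

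The collagen-binding subunits went apart. ITGA1, a receptor for collagen and basement membrane, is at chr5:52787916-52959209 (GRCh38) and had 7.32, 6.16 and 1.41 TPM in Hey and 4.34, 2.31 and 0.202 TPM in SKOV3. With 1 added to TPM and no further scaling, it was the only member called lower in daughter than in parental cells of both lines. Its log2 differences were -1.79 in Hey and -2.15 in SKOV3. As ratios of TPM without the added 1 these were 5.19-fold and 21.5-fold, the latter resting on 0.202 TPM in 1 library. By limma the difference was -1.97 (SE 0.477, unadjusted p = 0.00396, adjusted p = 1). The difference stayed past 2-fold in each line with every scaling and with the pseudocount of 0.1. It ranged from -2.30 to -1.75 in Hey and from -3.88 to -2.12 in SKOV3. That no other member passed in both lines depended on the setting. LAMA4 also passed with the pseudocount of 0.1, at -2.43 in Hey and -3.23 in SKOV3. Once the trend was removed, LAMA4 passed at -1.86 and -1.14 in the same order. ITGB3 passed with quantile normalization, at -3.76 in Hey and -1.08 in SKOV3. The mean of ITGA1, 3.62 TPM, is below the alternative filter of 5 TPM. ITGA2, the other common collagen receptor, had 31.3, 62.9 and 57.0 TPM in Hey and 3.54, 2.70 and 4.34 TPM in SKOV3. It was higher in Hey in 3 of 3 states, by 3.46 (SE 0.366, adjusted p = 0.00123 by limma), and the PGCC against parental difference of 0.98 in Hey lay just under the threshold. ITGA10, a cartilage collagen receptor, was 0.343, 0.502 and 0.0387 TPM in Hey and 0.828, 1.54 and 0.569 TPM in SKOV3. ITGA11, a fibroblast collagen receptor, was 0.0789, 0.0125 and 1.09 TPM in Hey and was listed at 0 in all SKOV3 libraries.

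The receptors for fibronectin and vitronectin were led by ITGA5 and ITGAV. ITGA5, the main fibronectin receptor with ITGB1, had 71.4, 93.0 and 81.2 TPM in Hey and 33.8, 45.3 and 13.9 TPM in SKOV3. It was higher in Hey in 3 of 3 states, by 1.51 (SE 0.381, adjusted p = 0.0315 by limma), although the parental difference of 1.06 was 0.96 without mitochondrial genes. It fell 2.43-fold in SKOV3 daughter cells against parental cells, a log2 difference of -1.22. ITGAV, the partner of several beta subunits, had 42.2, 61.4 and 35.0 TPM in Hey and 89.2, 81.1 and 98.5 TPM in SKOV3. In parental cells the difference of Hey from SKOV3 was -1.06, and between -0.84 and -0.75 with median ratios, quantile normalization or the trend removed. Its line difference of -0.97 had an adjusted p of 0.0747 by limma. ITGA2B, the platelet subunit, was 0.0135, 0.0346 and 0.0730 TPM in Hey and 1.34, 0.689 and 1.74 TPM in SKOV3.

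Of the other beta subunits that pair with ITGAV, ITGB8 and ITGB3 were called between states in 1 line each against parental cells, and ITGB5 was called in SKOV3 PGCCs. ITGB8, which with ITGAV binds latent TGF-beta, is at chr7:20330702-20415754 (GRCh38) and had 0.255 and 0.738 TPM in Hey parental cells and PGCCs, with Hey daughter cells listed at 0. In SKOV3 it had 4.05, 4.91 and 91.5 TPM, so daughter cells of this single clone stood 22.6-fold above parental cells and 18.6-fold above PGCCs. The log2 difference from parental cells of 4.19 ranged from 3.96 to 4.46 over the alternatives. ITGB8 took 0.337%, 0.518% and 7.31% of beta TPM in SKOV3. Its line difference was -3.44 (SE 0.891, adjusted p = 0.0346 by limma). The promoter window is shown for the size of this change. It is chr7:20330650-20330899, plus strand, 250 bases before a RefSeq start. Most of it lies inside the gene span given above, which begins at base 20330702. GC boxes are in capitals at 232 and 49 bases before the RefSeq start, the second inside that span, with no AP-1 or TATA letters.
ITGB8: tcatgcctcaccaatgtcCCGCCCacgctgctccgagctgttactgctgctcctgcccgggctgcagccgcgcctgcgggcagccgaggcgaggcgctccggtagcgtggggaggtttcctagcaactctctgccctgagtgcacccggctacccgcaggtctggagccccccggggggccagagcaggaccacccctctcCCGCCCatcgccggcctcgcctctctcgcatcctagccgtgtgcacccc

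ITGB3, the vitronectin receptor subunit, is at chr17:47253827-47313743 (GRCh38) and had 39.9, 32.7 and 1.64 TPM in Hey and 3.50, 4.22 and 1.80 TPM in SKOV3. In Hey daughter cells its TPM fell 24.4-fold against parental cells, to a level close to that of SKOV3 daughter cells. The log2 differences of daughter from parental cells were -3.96 in Hey and -0.68 in SKOV3, and the latter reached -1.08 with quantile normalization. By limma the difference was -2.32 (SE 0.769, unadjusted p = 0.0185, adjusted p = 1). The line difference was 3.19 for parental cells, 2.69 for PGCCs and -0.09 for daughter cells, and over the states it had an adjusted p of 0.0677 by limma.

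ITGB5, also a vitronectin receptor subunit, had 73.5, 44.8 and 92.1 TPM in Hey and 61.3, 144 and 120.4 TPM in SKOV3. In SKOV3 PGCCs it was 2.35-fold higher than in parental cells, with a log2 difference of 1.22 that was 0.78 with the GC and length trend removed. In Hey its PGCC value differed by -0.70 and its daughter value was 2.06-fold above PGCCs, a difference of 1.02 that missed the threshold at 0.78 to 0.98 in the 4 scalings. ITGB6, an epithelial subunit, had 0.0210, 0.129 and 0.0418 TPM in Hey and 24.0, 15.3 and 26.7 TPM in SKOV3, a line difference of -4.40 (SE 0.389, adjusted p = 0.000606 by limma), with no call between states.

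The remaining integrins are best known from white blood cells, whose 7 other markers were below 1 TPM in all 6 libraries. ITGA4, a receptor for VCAM1 and fibronectin, was listed at 0 in parental and daughter cells of Hey and at 0.0913 TPM in its PGCCs, against 4.98, 3.35 and 12.3 TPM in SKOV3. The line difference was -2.77 (SE 0.494, adjusted p = 0.0095 by limma). SKOV3 daughter cells were 2.47-fold above parental cells, a log2 difference of 1.15 that missed the threshold at 0.95 with median ratios and 0.82 with quantile normalization. ITGAE, which pairs with ITGB7 to bind E-cadherin, had 18.7, 26.4 and 38.1 TPM in Hey and 64.4, 46.6 and 35.0 TPM in SKOV3, with no call between states. ITGAX, known from dendritic cells, had 1.86, 2.98 and 0.804 TPM in Hey and 0.0351, 0.407 and 0.145 TPM in SKOV3. ITGB2, the shared leukocyte beta subunit, had 8.86, 8.60 and 14.4 TPM in Hey and 4.73, 9.37 and 8.71 TPM in SKOV3. ITGB7 had 0.526 and 1.21 TPM in Hey parental cells and PGCCs, was listed at 0 in Hey daughter cells, and had 1.00, 2.12 and 0.0386 TPM in SKOV3. The 7 members that never reached 1 TPM were ITGA8, ITGA9, ITGAD, ITGAL, ITGAM, LAMB4 and LAMC3, with a highest value of 0.81 TPM, and ITGAL was listed at 0 in every library.

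**Figure D4:**
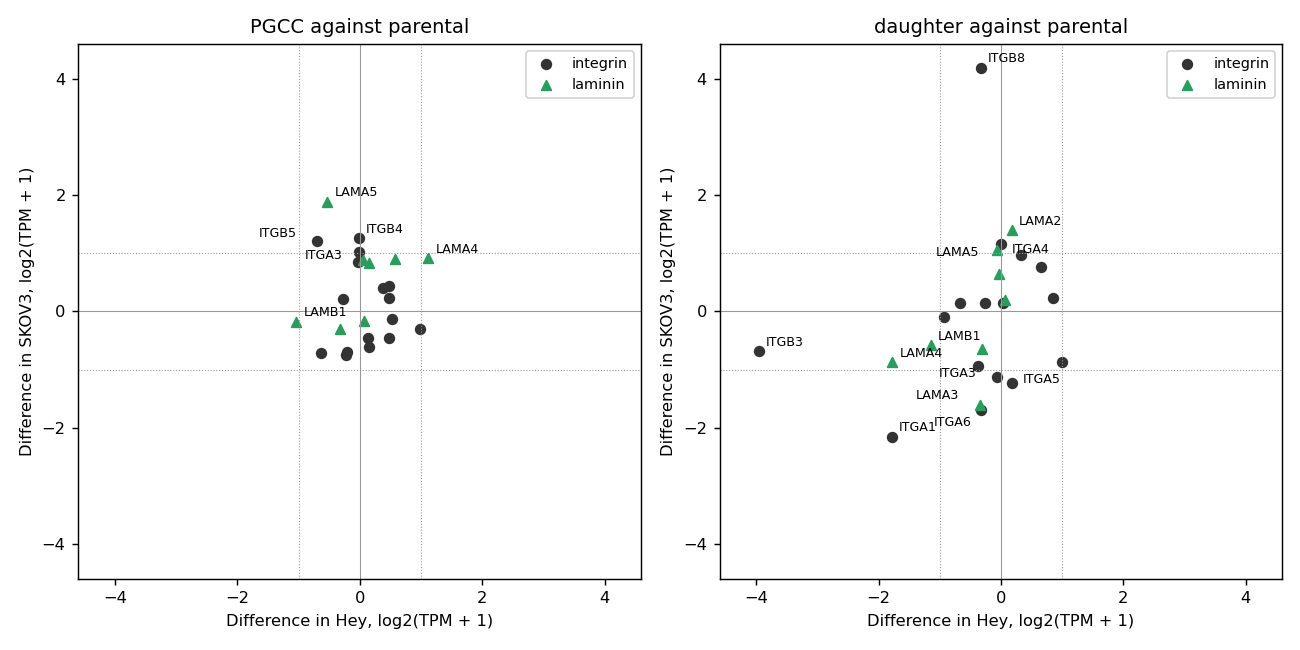
Differences in log2(TPM + 1) in Hey (horizontal axis) against SKOV3 (vertical axis) for PGCCs against parental cells on the left and daughter against parental cells on the right, for the 24 members with a mean of at least 1 TPM. Dotted lines mark 2-fold, no member lies beyond it in the same direction in both lines on the left, and ITGA1 alone does on the right.

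The SKOV3 PGCC differences followed the base composition of the transcripts. Over all 13348 genes with a known GC content (GENCODE 44, GRCh38), the Spearman correlation across genes between GC content and the PGCC against parental difference was 0.72 in SKOV3 and -0.044 in Hey. Over the 24 members it was 0.72 and -0.19. These genes share the same 2 libraries and are not independent replicates. The 4 members called higher in SKOV3 PGCCs had GC contents of 66.4% (LAMA5), 63.6% (ITGB4), 60.9% (ITGA3) and 54.6% (ITGB5), while ITGB1 and ITGA6, with differences of -0.75 and -0.72, had 39.5% and 42.5%. With the trend removed, the 4 differences were 0.60, 0.20, 0.14 and 0.78, and 0 of 24 members were called. Daughter cells against PGCCs in SKOV3 showed the reverse correlation, -0.46 over all genes and -0.54 over the members. Both comparisons use the same SKOV3 PGCC library with opposite sign, so the reverse correlation is not a separate observation.

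**Figure D5:**
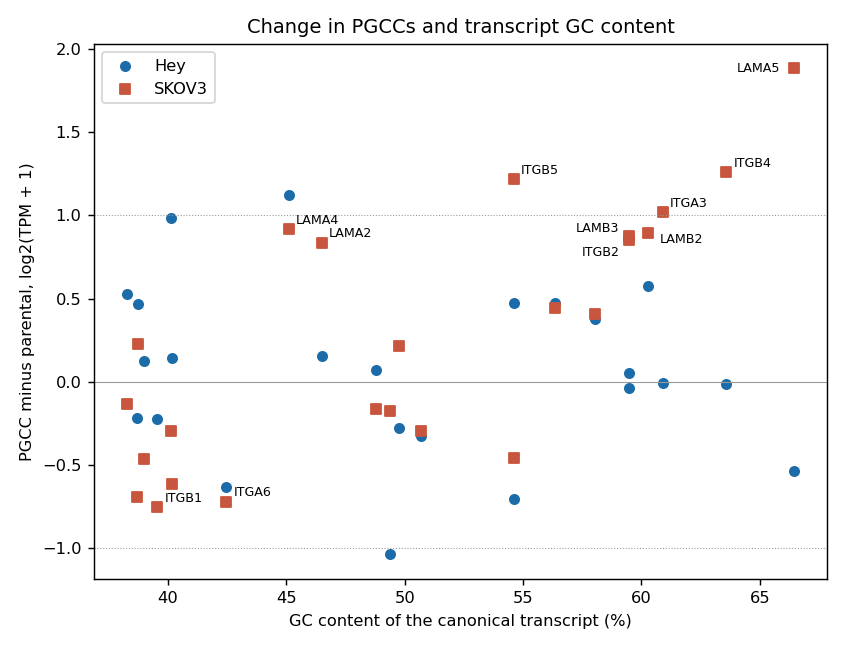
GC content of the transcript in percent (horizontal axis) against the PGCC minus parental difference in log2(TPM + 1) (vertical axis) for the 24 members in Hey (circles) and SKOV3 (squares, some labelled), with dotted lines at 2-fold. In SKOV3 the members with high GC content lie higher, up to LAMA5 at 66.4% and 1.88, and in Hey LAMA5 lies at -0.53.

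The proteins that work with these receptors were taken as 2 further lists, and their members named here beyond those called the same way in both lines were named after their values were seen. The shares of all genes called are those given above for the same comparisons. Of 30 integrin adhesion proteins, such as talin, vinculin and kindlins, 28 passed the filter. In PGCCs against parental cells 1 was higher (FERMT3, a kindlin of blood cells) and 1 lower (TLN2, a talin) in Hey. FERMT3 was low there, at 0.80 TPM in Hey parental cells and 2.98 TPM in Hey PGCCs. In SKOV3 4 were higher, namely TLN1, ZYX, BCAR1 and SHARPIN, and 1 lower, the epithelial kindlin FERMT1, where 9.94% and 4.96% of all genes were. In daughter against parental cells 1 was higher (CRK) and 0 lower in Hey, and 2 were higher (SRC and TNS3) and 5 lower (FERMT1, FERMT3, PARVB, LIMS2 and KANK2) in SKOV3. In daughter cells against PGCCs 2 were higher (FERMT1 and ACTN4) and 2 lower (FERMT3 and LIMS1) in Hey, and 1 was higher (TNS3) and 7 lower in SKOV3, against 14.6% and 9.25%. The list medians in Hey and SKOV3 were -0.51 and 0.52, then -0.27 and 0.0004, then 0.25 and -0.26 in these comparisons. No gene of this list was called the same way in both lines, where 0.387% to 1.21% of all genes were in a given direction, and FERMT1 was called opposite ways in daughter cells against PGCCs, at 1.13 in Hey and -2.16 in SKOV3.

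Of 20 basement membrane partners and other laminin receptors, 19 passed the filter. In PGCCs against parental cells 2 were higher (NID2 and COL7A1) and 3 lower (NID1, BCAM and PLEC) in Hey. In SKOV3 5 were higher, namely HSPG2, AGRN, BCAM, CD151 and PLEC, and 0 lower, against 9.94% and 4.96% of all genes. In daughter against parental cells 2 were higher (COL4A1 and COL4A2, the main network collagens) and 1 lower (BCAM, a receptor for LAMA5) in Hey. In SKOV3 8 were higher and 3 lower, the latter being COL7A1, COL17A1 and SDC1, against 15.1% and 6.34%. In daughter cells against PGCCs 5 were higher (NID1, COL4A1, COL4A2, COL17A1 and PLEC) and 3 lower (NID2, COL7A1 and DST) in Hey, and 5 were higher (NID1, COL4A3, COL4A4, COL4A5 and SDC4) and 6 lower in SKOV3, against 14.6% and 9.25%. The list medians in the same order were 0.10 and 0.80, 0.13 and 0.91, and -0.17 and 0.35. In the last comparison 3 genes were called the same way in both lines, 1 higher and 2 lower, where 1.21% and 1.07% of all genes were. NID1, a linker of laminin and collagen networks, had 20.7, 9.51 and 26.5 TPM in Hey and 0.393, 0.215 and 3.26 TPM in SKOV3 and rose by 1.39 and 1.81 on the log2 scale. NID2, its relative, had 0.132, 1.34 and 0.0950 TPM in Hey and 34.3, 66.3 and 28.7 TPM in SKOV3, with differences of -1.10 and -1.18. COL7A1, the collagen of anchoring fibrils, had 0.231, 1.57 and 0.208 TPM in Hey and 7.78, 14.3 and 0.551 TPM in SKOV3, with differences of -1.09 and -3.30.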

How the data were processed

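RNA-seq of 6 libraries was used, with 1 library per condition. The authors trimmed reads with fastp and quantified them on the hg38 transcriptome with salmon 0.14.1, and deposited TPM per gene symbol. The aggregation to genes and the annotation release are not given in the sources used here. TPM carry no counts, so no depth per gene, counting error or count test is given.

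Differences are of log2(TPM + 1), which understates changes of low genes, and genes averaging at least 1 TPM over the libraries were kept. limma 3.58.1 (R 4.3.3) was fitted over all 14988 such genes with state and cell line as terms, a mean trend, 2 residual degrees of freedom and Benjamini-Hochberg adjustment, so its spread is the disagreement between lines or states. Everything else used Python 3.11.15, numpy 2.4.6, pandas 2.3.3 and statsmodels 0.14.6. GC content and length are those of the canonical transcript in GENCODE 44 (13348 genes matched by symbol), and trends were removed by lowess (fraction 0.3, 2 passes). Promoters are from RefSeq on GRCh38.p14.

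A gene that fits the rule for members is not reported here, and no member count, median or share includes it. Named are all members reaching 1 TPM in any library, and partner genes called the same way in both lines. Members never at 1 TPM are listed, and other partner genes of short counts were named after their values were seen. The members, lists and tests were chosen with earlier results of these data known. Alternatives were a pseudocount of 0.1, no filter or a mean of 5 TPM, median ratio scaling, mitochondrial genes left out, quantile normalization, the trend removed, calls at 1.5-fold or 3-fold, and limma without the trend or with the tested term alone. Each library was also left out of limma in turn, chosen after seeing the data. The scripts were tested on simulated data.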

Additional observations from a re-analysis of the deposited data

Results flagged for a closer look

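The measured ITGB5 differences had opposite signs in the lines, and the Hey one was below 2-fold. PGCCs differed from parental cells by -0.70 on the log2 scale in Hey and by 1.22 in SKOV3, with 1 library each. The SKOV3 value was 0.78 after removal of the trend in GC content and length. The ITGB8 differences between daughter cells and PGCCs also had opposite signs, -0.80 in Hey, where it went from 0.738 TPM to a listed 0, and 3.97 in SKOV3. The difference between the lines was not tested in either case.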

How the results depend on the processing

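Of 54 differences of at least 2-fold over the named members and 7 pairs of libraries, 41 stayed past 2-fold under the pseudocount of 0.1, median ratios, quantile normalization, mitochondrial genes left out and the GC and length trend removed, 13 dropped below it in at least 1 and 0 reversed. Of these 54, 6 are on genes below a mean of 1 TPM for which the trend was not removed, and 5 of the 41 are among them. A further 39 differences, smaller at first, passed the threshold in at least 1. The calls lost were 9 without the trend, 8 with quantile normalization, 7 with median ratios and 4 without mitochondrial genes. Counts of changed members in PGCCs against parental cells were 2 in Hey and 4 in SKOV3, in daughter against parental cells 4 and 9, and in daughter cells against PGCCs 5 and 9. With a pseudocount of 0.1, PGCCs against parental cells gave 4 and 7 and daughter against parental cells in Hey 8. With a mean of at least 5 TPM the Hey counts were 1, 2 and 2. At 1.5-fold PGCCs gave 5 and 13, daughter against parental cells 9 and 18, and daughter against PGCCs 10 and 14. At 3-fold PGCCs gave 0 and 1, daughter against parental cells in SKOV3 4, and daughter against PGCCs in Hey 2. Without the trend SKOV3 PGCCs gave 0. For the cell lines limma called 11 members and, with no filter on low values, 4, and the cause was not tested. The other settings with all libraries gave 10 to 11. Leaving out each library in turn, chosen after seeing the data, gave 0 to 11, with the 0 without the PGCC library of either line. For the states it called 0 in every setting, leaving out libraries included. No paired analysis was possible because replicate numbers exist only as 1 library per condition, but the cell line pairs the states in limma. Without the line term the counts were 0 for the states, and without the state term the count was 11 for the lines. Depth per gene is unknown, so values under 1 TPM carry an error that cannot be given.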
